A study of Mus musculus with 6 samples.

Results

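The granins are acidic, soluble proteins of the dense-core secretory granule, the vesicle in which endocrine and nerve cells store peptide hormones. In the trans-Golgi network they aggregate with calcium at mildly acidic pH and help to gather hormone precursors into forming granules. Most are precursors themselves and are cut by prohormone convertases into smaller peptides that are released together with the hormone. In the pancreatic islet they lie in granules beside insulin, amylin and glucagon.

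The 5 granin genes described here are Chga (chromogranin A), Chgb (chromogranin B), Scg2 (secretogranin II), Scg3 (secretogranin III) and Vgf (VGF nerve growth factor inducible). They were chosen by name as members of the family. All 5 had a locus among the 39470 loci of the deposited count table, none shared exonic bases with another locus, and all 5 were among the 23983 loci with enough reads to be tested.

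Total RNA had been sequenced in 6 libraries from pancreatic islets of C57BL/6 mice that were killed at 14 weeks of age. In 3 of them the mice had received a normal diet. In the other 3 they had received a high fat diet to induce obesity, for 8 weeks. No genetic change or drug is given for either group, and the labels do not say whether a library came from 1 mouse or from several. The p-values therefore reflect how these libraries vary, and that variation may be technical. The count columns call the second group HDR, which is not spelled out, and reading it as the high fat diet is an inference on which every direction below rests. The libraries held 104657337 to 135353777 reads. Values are read counts scaled to library size after TMM normalisation (normalised CPM), and changes are log2 fold changes of high fat over normal diet. Adjusted p-values come from edgeR's quasi-likelihood test over all loci tested, with a threshold of 0.05.

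High fat library 3 differed most from the rest. On the second principal component it lay at 59.4, against -32.3 and -25.5 for the other high fat libraries, and genes with GC-rich transcripts read lower in it. The values without it are given beside the results that it moves most. In bulk RNA, more cells of a type and more RNA per cell cannot be told apart, and this holds for every level below.

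In the deposited annotation, on mouse build mm9, Chga lies on the plus strand at chr12:103793179-103803237 and has 8 exons and 1 transcript. Chgb lies on the plus strand at chr2:132607014-132620808 with 5 exons and 1 transcript. Scg2 lies on the minus strand at chr1:79431244-79436665. Its 2 known transcripts differ by a stretch of 120 bases that the longer one, of 2485 bases, keeps as exon. Scg3 lies on the minus strand at chr9:75491173-75531863 with 12 exons, and its 2 known transcripts differ by 15 bases. Vgf lies on the plus strand at chr5:137506130-137509914. Only 1 of its 3 transcripts is a known one, of 2588 bases and ending at base 137509221. The other 2 were assembled from these libraries and reach 693 bases past that end.

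Several granin promoters are known for the cAMP response element, a motif bound by CREB-family factors, which couple hormone and nutrient signals to transcription. Promoter stretches that hold it, or only a part of it, are shown because the same genes are followed together below. RefSeq promoter sequences on build GRCm38.p6 were matched for 4 of the 5 genes, Chga, Chgb, Scg2 and Scg3. In the 250 bases before each start, both strands were searched for TGACGTCA and for its shorter core TGACG, which every TGACGTCA also contains. Each line gives 30 bases 5′ to 3′ on the gene's strand, with the match in capitals. The windows are chr12:102554884-102554913 (plus strand) for Chga, chr2:132781559-132781588 (plus) for Chgb, chr1:79440076-79440105 (minus) for Scg2 and chr9:75684070-75684099 (minus) for Scg3.
Chga: gggggcggtcctaTGACGtaatttcctggg
Chgb: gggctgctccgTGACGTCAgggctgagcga
Scg2: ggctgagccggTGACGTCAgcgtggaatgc
Scg3: agcgctgggtcgcTGACGccatcctcacgc
Chgb and Scg2 held the full motif, which was present in 1.55% of 32851 RefSeq promoters searched in the same way. Chga and Scg3 held the shorter core, present in 17.8% of them. A match describes these letters and does not show that a factor binds there.

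Granin RNA was among the most abundant RNA of the islet libraries. Of all loci, Chga ranked 3, Scg2 ranked 4, Scg3 ranked 19 and Chgb ranked 22 by mean normalised CPM, whereas Vgf ranked 5139. These ranks are of loci as counted. The granin loci shared no exonic bases, whereas Ins1 shared 61.6% of them, and Ttr, with 100% shared, stood at 0 CPM. The effect of such sharing on the ranks was not tested. Levels of different genes can be compared only per length, here as normalised CPM per kilobase of exon. On that scale Chga averaged 9029 over the 6 libraries, with a range from 5888 to 11950. Scg2 averaged 6240, from 4153 to 8398. Chga was above Scg2 in 5 of 6 libraries and below it in high fat library 3, at 5888 against 7620, so the order of these neighbours was not the same in every library. Scg3 averaged 1060 CPM per kilobase, from 779.7 to 1311, and Chgb averaged 814.3, from 634.6 to 1024. The ranges of this second pair overlapped across the diets, and both lay below the lowest value of Scg2. Vgf averaged 11.56 CPM per kilobase, from 4.136 to 18.91, far below the other 4 genes. Among 14598 tested loci with a gene name, the ranks per kilobase were 4 for Chga, 6 for Scg2, 15 for Scg3, 22 for Chgb and 4025 for Vgf.

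**Figure D1:**
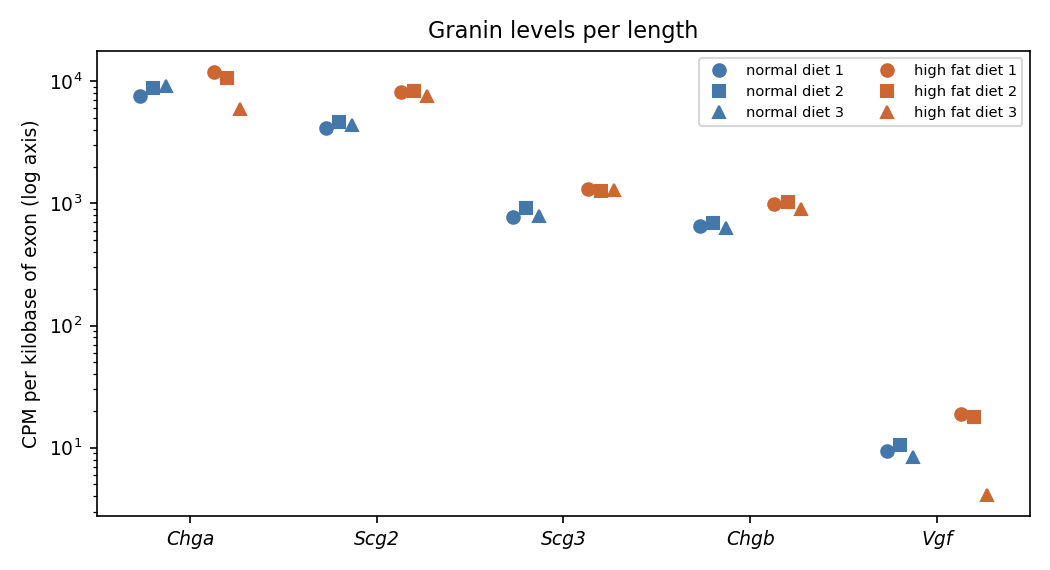
Normalised CPM per kilobase of exon (log axis) of the 5 granin genes; each point is 1 library, blue for normal and orange for high fat diet, with circle, square and triangle for libraries 1, 2 and 3. Means over the 6 libraries run from 9029 for Chga to 11.56 for Vgf, and the triangle of high fat library 3 is the lowest of all 6 points for both of these genes.

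Under the high fat diet 3 of the 5 granin genes rose past the threshold: Scg2, Scg3 and Chgb. None fell. Chga and Vgf did not pass the test with all 6 libraries. Of all loci tested, 5.95% rose and 4.86% fell, but rises were far more frequent among abundant loci, where 41.1% of the 190 loci with a mean of at least 500 CPM rose. Chga, Chgb, Scg2 and Scg3 belong to that abundant class. The 3 genes that rose are therefore 3 of 4 members in a class in which 78 of 190 loci rose. With library totals in place of TMM factors, 28 loci of that class rose, and Scg2, Scg3 and Chgb still passed, with edgeR adjusted p between 0.0143 and 0.024. The diets did not overlap for 3 of 5 granin genes and for 39.2% of all loci tested.

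Scg2, the precursor of the peptide secretoneurin, had the largest change of the 3 that passed. Its level was 10321, 11644 and 10948 normalised CPM in normal diet libraries 1, 2 and 3, and 20326, 20869 and 18937 in high fat libraries 1, 2 and 3. All 3 high fat libraries were above all 3 normal diet libraries, and the lowest was high fat library 3. Its log2 fold change was 0.87 (SE 0.0845, edgeR adjusted p = 0.00899, n = 3 per diet), a 1.83-fold difference.

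Scg3, a granule-membrane granin that binds cholesterol and chromogranin A, measured 1721, 2045 and 1730 normalised CPM under the normal diet. Under the high fat diet it measured 2894, 2799 and 2842. The high fat libraries lay close together and above every normal diet library. The log2 fold change was 0.64 (SE 0.0891, edgeR adjusted p = 0.0163, n = 3 per diet), a 1.55-fold difference.

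Chgb, an abundant core granin that is thought to act in the sorting of granule cargo, measured 1776, 1890 and 1734 normalised CPM under the normal diet. Under the high fat diet its levels were 2695, 2798 and 2460. The diets did not overlap, and the values within each diet were close. The log2 fold change was 0.56 (SE 0.0821, edgeR adjusted p = 0.018, n = 3 per diet), a 1.47-fold difference.

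Chga, the precursor of pancreastatin and vasostatin, was spread widely under the high fat diet. Its level was 14356, 16750 and 17177 normalised CPM under the normal diet and 22488, 20106 and 11081 in high fat libraries 1, 2 and 3. High fat libraries 1 and 2 were above every normal diet library, and high fat library 3 was below every one, so the diets overlapped. The means were 16094 ± 1520 and 17892 ± 6017 (SD, n = 3 each). The log2 fold change of 0.15 (SE 0.224) did not pass the edgeR test, with adjusted p = 0.674. With library totals only it was -0.055, so no direction can be given for Chga over all 6 libraries.

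Vgf, the precursor of several neuropeptides and a granin of low level here, was also spread widely under the high fat diet. Its level was 31.0, 35.01 and 27.8 normalised CPM under the normal diet and 62.7, 59.7 and 13.7 in high fat libraries 1, 2 and 3. The first of these high fat values were the highest of all 6 and the last was the lowest. The means were 31.3 ± 3.59 and 45.4 ± 27.5 (SD, n = 3 each), and the log2 fold change of 0.54 (SE 0.446) did not pass, with edgeR adjusted p = 0.437. The locus held between 1779 and 7104 reads in each library.

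**Figure D2:**
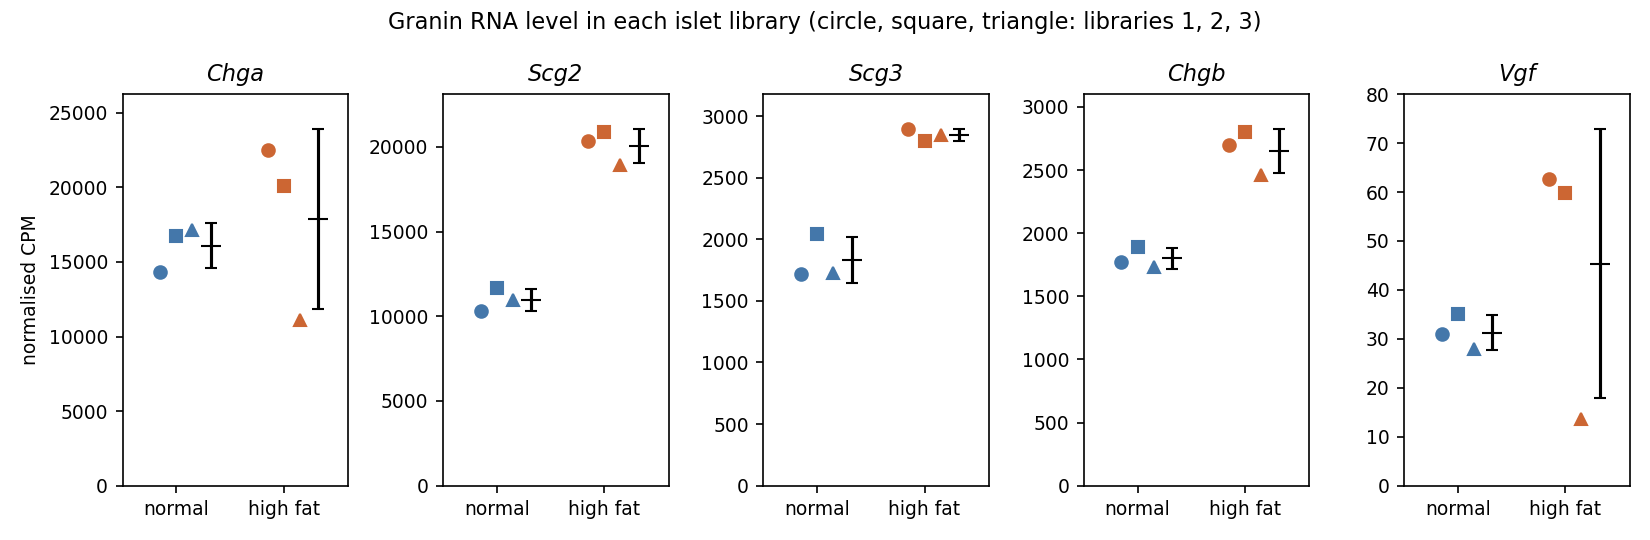
Normalised CPM of each granin gene in the 6 libraries, 1 panel per gene with its own axis from 0; circle, square and triangle are libraries 1, 2 and 3, and the black bar is the mean with 1 SD. Scg2, Scg3 and Chgb show no overlap between the diets, while the triangle of high fat library 3 lies below every normal diet point for Chga (11081) and Vgf (13.7).

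The granin levels in high fat library 3, set against the other high fat libraries, followed the order of the GC content of their transcripts. Relative to the mean of high fat libraries 1 and 2, library 3 held 0.999 times the level for Scg3, 0.919 for Scg2, 0.896 for Chgb, 0.520 for Chga and 0.224 for Vgf. The GC content of the longest reference transcript is 46.5% for Scg3, 46.8% for Scg2, 53.9% for Chgb, 58.4% for Chga and 64.1% for Vgf. Genes at large followed GC content in this library too. The median difference of high fat library 3 from high fat libraries 1 and 2 was 0.10 (log2) among 3249 genes of 45 to 50% GC, -0.46 among 2067 genes of 55 to 60% and -0.88 among 428 genes above 60%. Over all 12008 genes of at least 1 CPM, Pearson's r between this difference and GC content was -0.595, as a description across genes measured in the same libraries. Chga differed by -0.94 and Vgf by -2.16, both further than the median of their classes. In their own classes 12.2% of genes were at or below Chga, and 10 of 428, or 2.34%, were at or below Vgf.

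**Figure D3:**
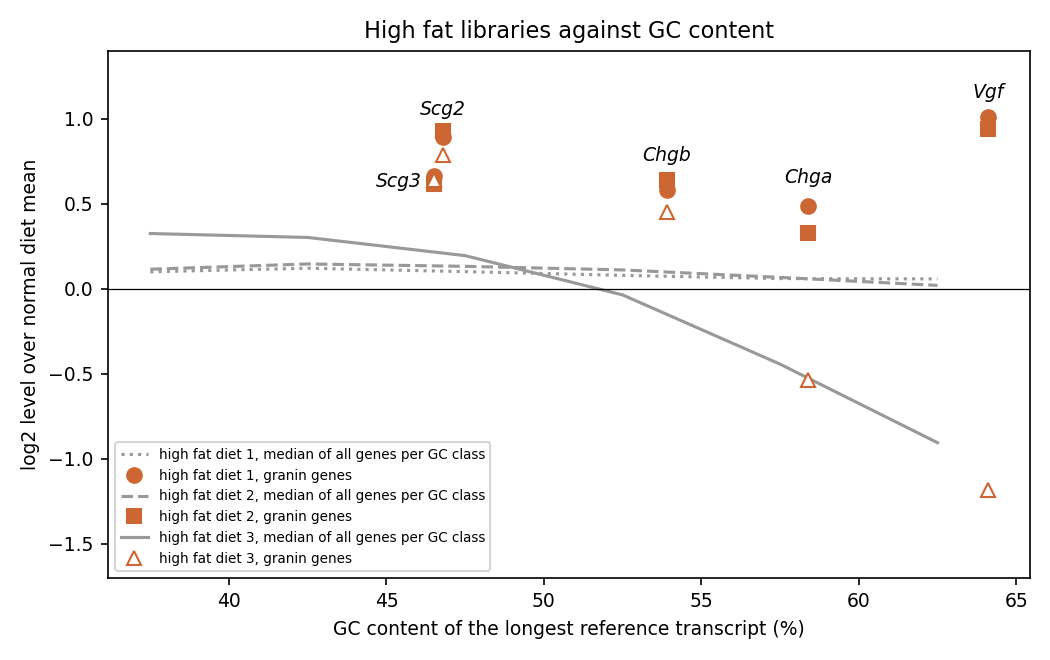
Log2 level over the normal diet mean in each high fat library against the GC content (%) of the longest reference transcript; symbols are the granin genes and grey lines the medians of all genes per GC class. The lines of high fat libraries 1 and 2 stay between 0.02 and 0.15, whereas that of high fat library 3 runs from 0.33 in the class of lowest GC to -0.91 in the class of highest GC, and Vgf lies below it.

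Without high fat library 3, all 5 granin genes rose, where 12.4% of all loci tested did. Of the 190 loci of at least 500 CPM, the class that holds Chga, Chgb, Scg2 and Scg3, 116 rose in that setting. Chga then had a log2 fold change of 0.41 (edgeR adjusted p = 0.0153) and Vgf of 0.98 (edgeR adjusted p = 0.000903). Scg2, Scg3 and Chgb gave 0.92, 0.64 and 0.62. That comparison has 3 normal diet libraries against 2. In an alternative chosen after the data had been seen, all 6 libraries were kept and a GC curve was removed from each. With this alternative, 4.57% of 14598 named loci and 45 loci of at least 500 CPM rose. Among the granin genes it kept the rises of Scg2 (0.73), Chgb (0.54) and Scg3 (0.50), whose edgeR adjusted p-values were between 0.00832 and 0.0214. Chga was at 0.26 (SE 0.105, edgeR adjusted p = 0.138) and Vgf at 0.68 (SE 0.227, edgeR adjusted p = 0.0864), neither past the threshold. The GC-adjusted level of Vgf was 53.1 and 53.2 CPM in high fat libraries 1 and 2 and 27.4 in high fat library 3, within the 24.8 to 30.6 of the normal diet. The curve also removes any mean difference between the diets that follows GC content.

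**Figure D4:**
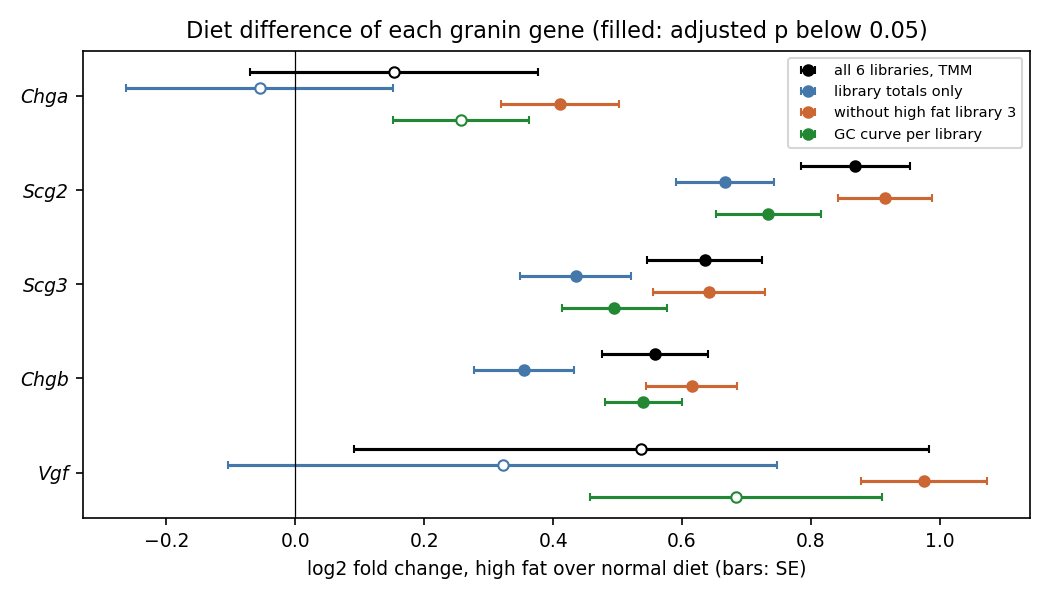
Log2 fold change of high fat over normal diet for each granin gene, with bars of 1 SE and filled symbols where the edgeR adjusted p is below 0.05, under 4 treatments of the data. Scg2, Scg3 and Chgb are filled throughout; Chga and Vgf are filled only without high fat library 3, at 0.41 and 0.98, and Chga is at -0.055 with library totals only.

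The calls also rest on having 3 normal diet libraries. When any 1 of these was left out, edgeR called 0 of 24558 to 24925 loci, while 5500 to 6294 had an unadjusted p below 0.05. The adjusted p of Scg2 was then 0.0866, 0.0555 and 0.083 without normal diet libraries 1, 2 and 3. Without high fat library 1, 94 loci rose and 34 fell, and the edgeR adjusted p was 0.0343 for Scg2 and 0.0502 for both Chgb and Scg3. Without high fat library 2, 57 loci rose and 29 fell, and the adjusted p was 0.0365 for Scg2, 0.0611 for Chgb and 0.0544 for Scg3. When libraries were left out one at a time, the log2 fold changes were 0.81 to 0.92 for Scg2, 0.57 to 0.70 for Scg3 and 0.51 to 0.62 for Chgb. They were lower with library totals only, at 0.667 for Scg2, 0.435 for Scg3 and 0.355 for Chgb.

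The size of the diet difference was compared between members through their ratios. A ratio of 2 genes within a library does not depend on depth or normalisation, and all 10 pairs were compared by exact permutation tests, whose smallest two-sided p with 3 libraries against 3 is 0.1. The log2 ratio of Scg2 to Scg3 was 2.58, 2.51 and 2.66 under the normal diet and 2.81, 2.90 and 2.74 under the high fat diet. The ratio was higher by 0.23 (log2) under the high fat diet with no overlap (exact permutation p = 0.1, 0.25 after Benjamini-Hochberg adjustment over 10 pairs). The log2 ratio of Chgb to Scg2 was -2.54, -2.62 and -2.66 under the normal diet and -2.92, -2.90 and -2.94 under the high fat diet. Every high fat library was below every normal diet library, with a mean difference of -0.31 (exact permutation p = 0.1, adjusted 0.25), which was -0.19 after removal of the GC curve. Chgb and Scg3 kept nearly the same ratio, with a difference of -0.082 (0.043 after removal of the GC curve) and overlapping diets (exact permutation p = 0.4, adjusted 0.667).

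The log2 ratio of Chga to Scg2 was 0.48, 0.53 and 0.65 under the normal diet and 0.15, -0.054 and -0.77 in high fat libraries 1, 2 and 3, a difference of -0.78 with no overlap (exact permutation p = 0.1, adjusted 0.25). High fat libraries 1 and 2 were already below every normal diet library, and high fat library 3 was the lowest. Without that library the difference was -0.50. Chga to Scg3 differed by -0.55, also with no overlap. That difference was -0.234 without high fat library 3 and -0.249 after removal of the GC curve. The other 5 ratios, of Chga to Chgb and of each gene to Vgf, overlapped between the diets, with exact permutation p from 0.2 to 1. Chga to Chgb differed by -0.464, and by -0.204 without high fat library 3. The ratios to Vgf turned on that library. With it the differences were -0.163 for Chga, 0.302 for Chgb, 0.614 for Scg2 and 0.384 for Scg3 over Vgf. Without it they were -0.568, -0.365, -0.064 and -0.334, and high fat libraries 1 and 2 were below every normal diet library for Chga, Chgb and Scg3 over Vgf. None of the 10 pairs could pass the threshold at this number of libraries.

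Summed over the family, granin RNA reached 28205, 32364 and 31617 normalised CPM under the normal diet and 48465, 46633 and 35333 under the high fat diet. All high fat libraries were above all normal diet libraries (exact permutation p = 0.1). As a plain share of all reads, granins made up 3.11%, 3.39% and 3.37% under the normal diet and 4.51%, 4.24% and 3.39% under the high fat diet. On that scale high fat library 3 lay within the normal diet range (exact permutation p = 0.2). Of the granin reads, Chga supplied 50.9%, 51.8% and 54.3% under the normal diet and 46.4%, 43.1% and 31.4% under the high fat diet. Scg2 supplied 36.6%, 36.0% and 34.6% under the normal diet and 41.9%, 44.8% and 53.6% under the high fat diet. By reads, Chga was thus the largest granin component in every normal diet library and in high fat library 1. Scg2 was the largest in high fat libraries 2 and 3.

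The members could also be set beside each other, and beside other genes, by the shape of their levels over the 6 libraries, measured as the root mean square difference of centred log2 CPM. Chgb and Scg3 were the closest pair of granins, at 0.087. Scg2 stood 0.132 from Scg3 and 0.161 from Chgb. Chga was 0.364 to 0.481 from the other members, and Vgf was 0.434 to 0.750 from them. Of about 2016 named loci of at least 100 CPM, those nearest to Chgb were Serp1 (0.0292), Ostc (0.0317) and Ccpg1 (0.032). Serp1 acts at the translocation pore of the endoplasmic reticulum and Ostc is a subunit of the oligosaccharyltransferase. Ccpg1, a receptor for autophagy of the endoplasmic reticulum, shares 44.1% of its exonic bases with another locus. Those nearest to Scg2 were Pamr1 (0.0635), the kinetochore gene Spc25 (0.0744) and G6pc2 (0.0753), an islet glucose-6-phosphatase. Spc25 and G6pc2 are neighbours on chromosome 2. Those nearest to Scg3 were Selenop (0.035), a selenium carrier, Ell2 (0.0601), an elongation factor of RNA polymerase II, and the lipid kinase gene Pip5k1b (0.0616). Those nearest to Chga were the ribosomal protein genes Rps9 (0.067), Rpl8 (0.0719) and Rpsa (0.0843), with 52%, 58.3% and 50.6% GC. In high fat library 3 against the other high fat libraries, they were at -0.834, -1.003 and -1.078 (log2). The GC curve gave -0.095, -0.597 and -0.026 for them. Vgf had no close match: its nearest were Rabac1 (0.208), Khk (0.236) and Chpf (0.296). These 3 genes have 58.0 to 59.9% GC and were at -1.55 to -2.21 (log2) in high fat library 3 against the other high fat libraries. The GC curve gave -0.764, -0.705 and -0.566 for Rabac1, Khk and Chpf. The genes nearest to Chga and Vgf were picked for likeness over all 6 libraries. Their falls in high fat library 3 follow from that choice and are not separate observations.

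The genes that build granules and their membranes were described by a list of 30, of which 29 were tested and Vps51 had no locus. Of the 29, 11 rose, none fell and 18 did not pass the test, where 5.95% of all loci and 41.1% of loci of at least 500 CPM rose. Their median log2 fold change was 0.25, against -0.05 over all loci tested and 0.31 over loci of at least 500 CPM. Cpe, a carboxypeptidase and proposed sorting receptor of granule cargo, was 4296, 5114 and 4677 normalised CPM under the normal diet and 6787, 6518 and 6577 under the high fat diet. The diets did not overlap for Cpe, and its log2 fold change was 0.50 (edgeR adjusted p = 0.0222). Rab3d, a small GTPase of secretory vesicles, rose by 0.70 (edgeR adjusted p = 0.0203). Ica1l, related to the granule-associated islet autoantigen Ica1, rose by 0.68 (edgeR adjusted p = 0.0197). Tmed2, a cargo receptor between the endoplasmic reticulum and Golgi, rose by 0.48 (edgeR adjusted p = 0.0232), but was at 0.276 with library totals only, with adjusted p = 0.0694. The count was 15 without high fat library 3 and 6 with the GC curve. With library totals only it was 3, and 1 list member fell.

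Ptprn, the granule-membrane autoantigen IA-2, was singled out after its values had been seen, because it shared the fall of Chga and Vgf in high fat library 3. It measured 271, 304 and 334 normalised CPM under the normal diet and 344, 362 and 168 under the high fat diet, and its transcript has 59.5% GC. Against the other high fat libraries it was at -1.07 (log2) in high fat library 3, where the GC curve gave -0.721.

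Of 12 genes of prohormone processing, the enzymes and helpers that cut granins and hormones, all 12 were tested, 4 rose and none fell, beside the same 5.95% and 41.1%. The median log2 fold change was 0.17, and -0.032 with library totals only. Pam, which amidates peptide ends, rose by 0.66 (edgeR adjusted p = 0.0134). Scg5, the 7B2 chaperone of convertase PC2, is at times counted with the granins. It measured 1134, 1120 and 1152 normalised CPM under the normal diet and 1628, 1712 and 1450 under the high fat diet. Its diets did not overlap, and it rose by 0.49 (edgeR adjusted p = 0.0211). Cpe, which belongs to this list too, is given above. Pcsk1, the convertase that cuts granins and proinsulin, rose by 0.36 (edgeR adjusted p = 0.0262), but it was at 0.16 with library totals only and at 0.17 with the GC curve, neither past the threshold. Pcsk1n, the granin-like proSAAS, was named after its values had been seen. It measured 49.4, 154.8 and 88.6 normalised CPM under the normal diet and 145.4, 100.7 and 4.94 under the high fat diet. Its fall in high fat library 3, by 4.61 (log2) against the other high fat libraries, was deeper than that of Vgf, and its transcript has 57.3% GC. The GC curve gave -0.491 for Pcsk1n in that comparison.

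The hormones that share the granule moved in both directions. Of 13, 12 were tested and Sst had no locus. Of these 12, 2 rose, 2 fell and 8 did not pass, where 5.95% of all loci rose and 4.86% fell. The median was -0.035, and -0.234 with library totals only. Iapp, which encodes amylin, rose by 0.72 (edgeR adjusted p = 0.0139), from 35729 ± 803 to 58831 ± 5886 normalised CPM (SD, n = 3 each). Nucb2, the precursor of nesfatin, rose by 1.04 (edgeR adjusted p = 0.0146), from 380 ± 16.0 to 783 ± 171. Npy fell by 1.82 (log2, edgeR adjusted p = 0.0454), from 11.4 ± 2.31 to 3.24 ± 2.02 normalised CPM, and missed the threshold with the GC curve, at adjusted p = 0.052. Adcyap1, which encodes the neuropeptide PACAP, fell by 2.20 (log2, edgeR adjusted p = 0.0371) at a level below 1 CPM. The insulin genes did not pass: Ins1, which shares 61.6% of its exonic bases with another locus, was at 0.32 and Ins2 at 0.16. Without high fat library 3, Ins1 passed at 0.388 (edgeR adjusted p = 0.0379). Gcg, which encodes glucagon, was at -0.29 and did not pass with all 6 libraries. It was called lower with the GC curve (-0.456, edgeR adjusted p = 0.0169), with library totals only (-0.487, adjusted p = 0.0213) and without high fat library 3 (-0.362, adjusted p = 0.0116). Ppy was at -0.14 and Pyy at -0.19. Ghrl, with 49.6% of its exonic bases shared, was at -0.55, and passed with library totals only (-0.756, edgeR adjusted p = 0.0399). Gal was at 0.071 and Ucn3 at 0.089.

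Factors of the cAMP, CREB and REST system, known regulators of granin genes, gave 15 tested genes of 16, with Insm1 having no locus. Of these, 1 rose, 1 fell and 13 did not pass, which is near the 5.95% and 4.86% of all loci. The median was 0.048, or -0.151 with library totals only. Crem, a cAMP-responsive member of the CREB family, rose by 0.63 (edgeR adjusted p = 0.0262), with adjusted p = 0.0722 under the GC curve and 0.0568 with library totals only. Rcor2, a corepressor of the REST family of complexes, fell by 0.92 (log2, edgeR adjusted p = 0.0173). It was at -0.58 with the GC curve, where its adjusted p was 0.145. Of 14 activity-regulated early genes, many of them CREB targets, 8 had a locus and 7 were tested. None rose and 3 fell, where 4.86% of all loci fell. Fosb, a subunit of the AP-1 factor, fell by 1.38 (log2, edgeR adjusted p = 0.0347). The stress-induced factor Atf3 was at -1.48 and the phosphatase Dusp1 at -0.99 (edgeR adjusted p = 0.0362 for both). Dusp1 shares 43.7% of its exonic bases with another locus. Leaving out any 1 of the normal diet libraries left none of the edgeR calls on the granule, processing, hormone, regulator and early gene lists. Without high fat library 1, calls were left for 1 processing gene, 3 hormones and 1 early gene, and without high fat library 2 for 1 hormone.

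Near the granin genes, 4 other loci lay within 5 kb, and they were looked at after the members. A locus with no gene name, whose 2 transcripts the deposited annotation gives as assembled and intergenic (class code u), begins 62 bases beyond the start of Scg3 and runs in the opposite direction, at chr9:75531926-75538033 on the plus strand. This locus, XLOC_036090, measured 17.1, 15.1 and 12.9 normalised CPM under the normal diet and 10.6, 10.2 and 11.3 under the high fat diet. It fell by 0.49 (log2, edgeR adjusted p = 0.0466) with no overlap between the diets, while Scg3 rose. The library kit marks strand, but whether the counting used it is not given in the sources used here. Itpk1, beside Chga, was at -0.23 (edgeR adjusted p = 0.329). XLOC_026722, an assembled locus downstream of Vgf and antisense to known exons, was at -0.47 (edgeR adjusted p = 0.0693). Ap1s1, with 95.8% of its exonic bases shared, held almost no reads.

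Granins are made by endocrine cells, so markers of the islet cell types were summed in each library. The beta-cell markers, 8 of 10 with a locus, summed to 58580 to 68870 normalised CPM under the normal diet and 84420 to 103800 under the high fat diet, with no overlap (exact permutation p = 0.1, 0.2 after adjustment over 12 cell types). Of its 6 tested markers, 2 rose (Iapp and G6pc2) and none fell. Iapp, at 35729 and 58831 normalised CPM on average, made up most of the sum and of its difference. Mafa and Pdx1 had no locus, and Nkx6-1 and Slc2a2 stood at 0 with nearly all of their exonic bases shared with another locus. The alpha-cell markers summed to 23050 to 25460 under the normal diet and 18500 to 22030 under the high fat diet (exact permutation p = 0.1, adjusted 0.2). Of 6 tested, 1 rose (Gc, by 1.715, edgeR adjusted p = 0.0111) and 3 fell (Irx1, Irx2 and Slc7a2). Gcg, at 23097 and 18928 normalised CPM on average, made up most of the sum. It did not pass in the main test (edgeR adjusted p = 0.0804). Ttr stood at 0 with all exonic bases shared. Delta-cell markers without Sst ran from 20.23 to 25.12 against 15.39 to 20.15, and Ppy from 2231 to 3459 against 1971 to 2988. The enterochromaffin-type genes Tph1 and Tph2 summed to 1.358 to 2.062 against 1.704 to 2.619.

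Among non-endocrine cells, the acinar sum overlapped between the diets, at 3044 to 5922 against 4431 to 9503 normalised CPM. The duct sum ran from 4.404 to 6.122 against 3.925 to 5.084, and the endothelial sum from 351.5 to 404.5 against 351.3 to 436.0. Schwann and nerve markers did not overlap between the diets, at 24.25 to 25.47 against 16.26 to 22.37. Myeloid markers ran from 33.12 to 38.30 against 25.30 to 33.52. Stromal markers ran from 340.5 to 420.4 against 428.3 to 553.5, with 2 of 8 rising and 1 falling. The pericyte gene Rgs5 carried that sum, at 235 ± 4.79 against 380 ± 38.3 normalised CPM (SD, n = 3 each), while the collagen genes Col1a1, Col1a2 and Col3a1 were at -1.37, -0.65 and -0.44 (log2), none past the test, and Thy1 fell by 1.00. The adipocyte sum ran from 9.144 to 9.804 against 17.48 to 30.12 and was Fabp4 almost alone, a gene that endothelial cells and macrophages also express. Plin1 and Lep were at 0, and Adipoq was at most 0.0207 CPM in any library. Adjusted p-values over the 12 exact permutation tests were between 0.2 and 0.6. In normalised CPM, the beta-cell sum, mostly Iapp, and the sum of granin RNA were both higher in every high fat library than in any normal diet library. As a plain share of reads, granins in high fat library 3 were at 3.385%, within the normal diet range of 3.11% to 3.392%. The part of cell composition in the granin differences was not tested.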

How the data were processed

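Islet total RNA was depleted of ribosomal RNA and made into stranded, paired-end libraries, per the labels' protocols. The submitters' processing notes name genome build mm9 and, as tools, edgeR, HTSeq 0.5.4p3, Cufflinks 2.1.1 and TopHat2 2.0.8. Their order and settings are not given in the sources used here. The authors deposited raw read counts for 39470 loci, a second table of scaled signal values, and exon coordinates of 98161 transcripts. Each scaled signal value deposited is the count times 1 constant per library (0.9061 to 1.099). Divided back, 100% of the values came out whole within 0.001 and equal to the raw counts, so the count test on these reads is the main test.

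The files give no gene symbols. Loci were linked to GENCODE M21 genes (build GRCm38) by the lengths of their exons and introns on the same chromosome and strand, without converting coordinates, which named 19618 loci holding 92.2% of counts. Vgf was linked by a rule for loci of 2 exons with 40 bases of tolerance at the ends. A gene with no link was not analysed by name.

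Of all loci, 23983 passed filterByExpr. TMM-normalised counts of these were fitted in edgeR 4.0.16 (R 4.3.3; quasi-likelihood, diet alone, two-sided, Benjamini-Hochberg over all loci tested, threshold 0.05). TMM factors were 1.048 to 1.103 for the normal diet and 0.9085 to 0.9583 for the high fat diet; with library totals only, the median log2 fold change of all loci was -0.25, against -0.05. The SE was derived from the test, as the absolute log2 fold change over the root of its F statistic. The GC curve is a loess fit per library over loci of at least 1 CPM with a named transcript, entered as an offset. Scripts were tested on simulated data. DESeq2 1.42.0 and limma 3.58.1 (log2 of scaled value + 1) served as alternatives.

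The members, lists and alternatives were chosen with earlier results of these data known. Named are the members, up to 4 called genes per list with the smallest adjusted p, all granule hormones, members of any list with 5 or fewer called, and the 3 loci of at least 100 CPM most like each member. Outside this rule, Ptprn, Pcsk1n, Itpk1, Ap1s1, XLOC_036090 and XLOC_026722 are named after their values were seen, as are the cell type markers singled out, and genes without a locus or as background.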

Additional observations from a re-analysis of the deposited data

How the results depend on the processing

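Scg2, Scg3 and Chgb kept their direction in every setting run. Leaving out 1 library at a time gave log2 fold changes of -0.039 to 0.41 for Chga, 0.512 to 0.615 for Chgb, 0.808 to 0.915 for Scg2, 0.572 to 0.701 for Scg3 and 0.237 to 0.975 for Vgf. It gave 0 to 5 granin genes called higher, 0 to 3075 of all loci higher and 0 to 1960 lower, and 0 to 116 abundant loci higher. For the lists it gave 0 to 15 granule genes higher, 0 to 5 processing genes higher, 0 to 3 hormones in either direction, 0 to 3 regulators higher and 0 to 1 lower, and 0 to 3 early genes lower. Without any 1 of the normal diet libraries 0 loci were called.

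With library totals only, Chga changed sign to -0.055. Then 300 loci were higher and 3039 lower, 28 abundant loci were higher, 3 granule genes were higher and 1 lower, 1 processing gene was lower, 4 hormones were lower, and 0 regulators were higher and 5 lower. DESeq2's Wald test called 2456 loci higher and 3 regulators higher, and its size factors in edgeR gave 2 regulators higher. With limma on scaled values, 399 loci and 25 abundant loci were higher, 2 granule genes were higher and 1 lower, and 1 processing gene was higher and 1 lower. With the GC curve, 667 loci, 45 abundant loci, 6 granule genes and 0 regulators were higher and 0 regulators lower; Chgb/Scg2 differed by -0.191 and Chgb/Scg3 by 0.043. Among named loci only, 443 were lower, and 1 hormone. The cause of these differences was not tested.

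The labels do not say whether library numbers pair the samples. The deviations of same-numbered samples from their diet means correlated at -0.0749, 0.0747 and -0.0135. Of the normal diet libraries, 0 of 3 correlated best with the high fat library of their number. High fat library 2 did correlate best with normal diet library 2, at 0.0747. Deviations from means of 3 libraries cannot show that pairing was absent. With the replicate block, Scg2 alone of the members was called (1 of 5); Chgb was at 0.557 (adjusted p = 0.0529) and Scg3 at 0.64 (adjusted p = 0.0532). The block gave 54 loci higher and 20 lower, 12 abundant loci higher, 0 granule genes, 1 processing gene and 0 regulators higher, and 0 hormones and 0 regulators lower.

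As plain shares of reads, the log2 difference was 0.287 for the granin sum (0.807 for the normalised sum without Chga), 0.351 for beta, -0.468 for alpha, -0.597 for delta, -0.104 for endothelial, -0.57 for Schwann, 0.161 for stromal and -0.561 for myeloid markers.

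Some genes with no call changed sign. With library totals only the values were -0.201 for Chpf, -0.122 for Gal, -0.046 for Ins2, -0.026 for Khk, -0.021 for Rpl8, -0.084 for Rps9, -0.154 for Rpsa and -0.111 for Ucn3. Chpf was at -0.237 with limma and -0.241 with the block; Rpsa was at -0.015 with the block and -0.049 with the GC curve. With 1 library left out the ranges were -0.283 to 0.455 for Chpf, -0.27 to 0.309 for Gal, -0.028 to 0.327 for Ins2, -0.042 to 0.551 for Khk, -0.321 to 0.075 for Ppy, -0.016 to 0.359 for Rps9, -0.138 to 0.338 for Rpsa and 0 to 0.153 for Ucn3.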
